A study of Betula luminifera with 4 samples.

Results

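WRKY transcription factors of the birch Betula luminifera were followed through 4 poly(A) RNA libraries from plants grown with or without phosphate. Members were the assembled contigs whose Swiss-Prot description, or Nr description where Swiss-Prot gave none, contained "WRKY" and did not contain "disease resistance"; 103 of the 76899 contigs in the gene table qualified. All plants were of 1 tissue-culture clone, G49#, grown in sand, first fed phosphate and then only deionized water. The 2 LP libraries (roots, and shoots made of stem and leaf RNA in equal amounts) came from plants then watered with a modified MS medium that lacked KH2PO4 and had its potassium restored with K2SO4. The 2 CK libraries, of the same tissues, came from plants given 1.25 mM KH2PO4. Each group was 1 library, and the number of plants in it was not given in the sources used here, so no difference below has a replicate check and no p-value was computed.

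WRKY proteins are plant transcription factors named for a short peptide in their DNA-binding domain, which binds the W-box element of promoters. They are sorted by the number of WRKY domains and the type of zinc finger into groups I, IIa to IIe and III. Many are known from Arabidopsis as regulators of immunity, senescence and stem development, and a few act on phosphate: WRKY75 and WRKY45 promote phosphate uptake under starvation, and WRKY6 and WRKY42 repress the phosphate exporter gene PHO1. VQ-motif proteins and MAP kinases are their best-known partners.

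The 103 contigs carried 50 different names, 84 from Swiss-Prot and 19 from Nr. They were 210 to 2763 bp long with a median of 550 bp; 35 were under 400 bp and 26 reached 1000 bp. The family label was checked against the other annotations of each contig. A WRKY domain from Pfam was listed for 49 contigs, an Nr match named WRKY for 75, and 77 had at least one of these. All 23 contigs named WRKY16 (13) or WRKY19 (10) had neither; 17 of them carried the NB-ARC domain of immune receptors, and 17 had a resistance protein as Nr match. In Arabidopsis these 2 names belong to receptors that have a WRKY domain fused to them. The other 3 contigs with neither were a WRKY53 contig of 315 bp, a WRKY71 contig of 1816 bp and a WRKY49 contig of 1368 bp that was listed with a glyoxalase domain. Results are given over all 103 and, where it matters, over the 77.

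Levels are in TPM, a length-corrected share of all transcripts, as the authors deposited them. Most contigs were of low abundance. Over all members the median was 3.29 TPM in LP roots, 2.27 TPM in CK roots, 10.98 TPM in LP shoots and 6.83 TPM in CK shoots. LP roots had 83 members above 0 and CK roots had 56; LP shoots had 91 and CK shoots had 77. Of the 103, 46 were above 0 in all 4 libraries and 10 in only 1. The 77 contigs with WRKY evidence summed to 890 TPM in LP roots, 1376 TPM in CK roots, 1190 TPM in LP shoots and 948 TPM in CK shoots. The single most abundant member was the WRKY49 contig without WRKY evidence, with 693 TPM in LP roots, 663 TPM in CK roots, 17.4 TPM in LP shoots and 17.8 TPM in CK shoots. It made up 39.2% of the members' summed level in LP roots and 28.5% in CK roots.

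The libraries differed in ways that bear on every comparison. Contigs with a eudicot best match made up 51.4% of the LP root TPM, 65.8% of the CK root TPM, 78.1% of the LP shoot TPM and 81.4% of the CK shoot TPM, and any other RNA lowers the TPM of birch contigs. The median of ratios over 12934 eudicot-matched contigs was shifted by -0.62 log2 between LP and CK roots and by 0.11 between LP and CK shoots, and values scaled by it are given as scaled. In total 56647 contigs were above 0 in LP roots, against 26711 in CK roots. A contig of 400 bp needed 0.266 TPM in LP roots, 0.507 TPM in CK roots, 0.525 TPM in LP shoots and 0.627 TPM in CK shoots to hold 3 fragments, by the step that 1 fragment makes; this covers counting error only. The tissue labels were checked with marker names. The 53 shoot markers, such as chlorophyll-binding proteins, summed to 4487 TPM in LP roots, 867 TPM in CK roots, 27857 TPM in LP shoots and 42319 TPM in CK shoots, and 1 contig supplied 3698 TPM of the LP root sum. Of 20 root marker contigs, 4 were higher in roots and 11 higher in shoots under LP, and 6 and 9 under CK, so that list did not separate the tissues. It summed to 166 TPM in LP roots, 432 TPM in CK roots, 203 TPM in LP shoots and 168 TPM in CK shoots. Its Casparian strip proteins (2 contigs) summed to 21.9 TPM in LP roots, against 123 TPM in CK roots. In LP shoots they had 13.2 TPM, and in CK shoots they were listed at 0. Root markers thus summed lower in LP roots, as many WRKY contigs below did, and their part in those results was not tested.

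The first comparison asks which WRKY genes differ in roots deprived of phosphate. Contigs that reached 1 TPM in either library of a pair were compared, and one counts as higher or lower where log2((LP + 1)/(CK + 1)) is 1 or more in size, that is 2-fold after adding 1 TPM, a scale that understates changes of low genes. Of the contigs of at least 1000 bp that passed this rule, most were lower in LP roots, whereas most of those under 400 bp that passed it were higher. Over all members, 33 were higher and 34 lower of 81 compared. Over all contigs 64.2% were higher and 22.4% lower by the same rule, and of eudicot-matched contigs 40% and 33.7%, so the shares of WRKY members, 40.7% higher and 42% lower, were near the eudicot background on the higher side and above it on the lower side. With median scaling 38 members were higher and 28 lower, against 45.9% and 26% of eudicot-matched contigs and 67.3% and 18.5% of all contigs. Fewer cells that express a gene and less RNA per cell cannot be told apart in such bulk libraries.

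Contig length split these counts. Among the 25 compared members of at least 1000 bp, 1 was higher and 13 lower in LP roots (scaled, 6 and 9), against 21.7% higher and 34.2% lower among eudicot-matched contigs of that length (scaled, 31.1% and 22.6%). Among the 21 compared members under 400 bp, 16 were higher and 5 lower, against 67.1% and 29.3% of eudicot-matched contigs of that length. All 16 of these short contigs that were higher were listed at 0 in CK roots. So were 3816 of the 4202 eudicot-matched contigs of that length that were higher. Over the 50 compared members above 0 in both root libraries, 6 were higher and 30 lower, with a median log2 ratio of -1.43. Of eudicot-matched contigs above 0 in both, 19.9% were higher and 40.3% lower, with a median of -0.57; the members' shares were 12% and 60%.

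**Figure D1:**
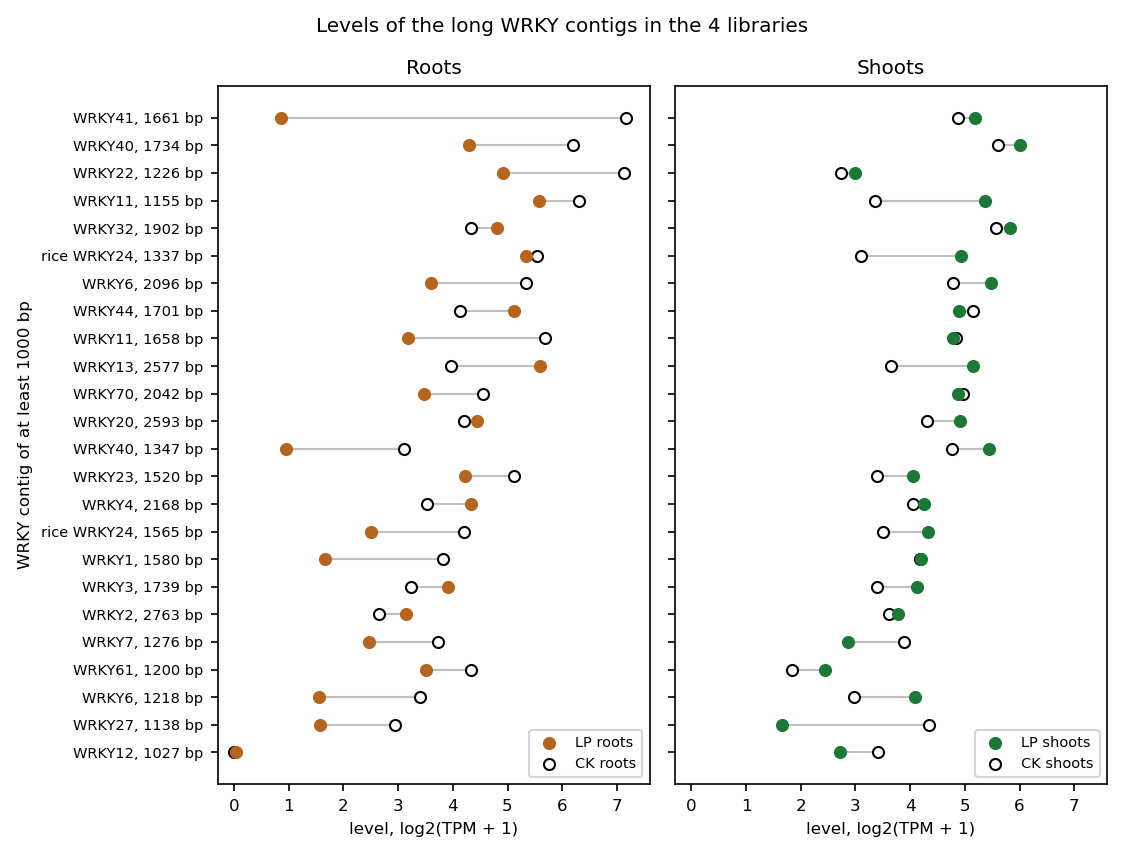
Level, as log2(TPM + 1), of the 24 contigs of at least 1000 bp with WRKY evidence, in roots (left) and shoots (right), ordered by mean TPM; filled points are the LP library and open points the CK library, 1 library each. In roots 12 of the filled points lie at least 1 unit left of the open ones and 1, WRKY13, lies at least 1 unit right; in shoots 2 and 4 do.

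WRKY41 of group III, which takes part in pathogen responses in Arabidopsis, showed the widest gap among the long contigs. Its 1661 bp contig had 0.81 TPM in LP roots and 143 TPM in CK roots, with 35.3 TPM in LP shoots and 28.5 TPM in CK shoots. The log2 ratio was -6.31 in roots (scaled, -5.96) and 0.30 in shoots. LP roots were the lowest library and CK roots the highest on this contig. The 929 bp WRKY41 contig was low in both root libraries, with 0.88 TPM in LP roots and 0.15 TPM in CK roots. It had 8.06 TPM in LP shoots and 15.3 TPM in CK shoots, and it did not pass the rule in roots. WRKY22, a group IIe factor that acts downstream of a MAP kinase cascade in Arabidopsis immunity, had 29.3 TPM in LP roots and 139 TPM in CK roots on its 1226 bp contig, and 6.97 TPM in LP shoots and 5.69 TPM in CK shoots. Here CK roots were high, LP roots intermediate, and both shoot libraries low; the root log2 ratio was -2.21 (scaled, -1.60). The 510 bp contig of WRKY61, of group IIb, had 6.57 TPM in LP roots, 123 TPM in CK roots, 14.1 TPM in LP shoots and 8.09 TPM in CK shoots, a root log2 ratio of -4.03 (scaled, -3.47). A 1200 bp contig of WRKY61 had 10.3 TPM in LP roots and 19.2 TPM in CK roots. Its root log2 ratio of -0.83 (scaled, -0.25) missed the rule.

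Group IIa factors, which tune defence and abscisic acid responses in Arabidopsis, were represented by 2 WRKY40 contigs and 1 WRKY18 contig. The longer WRKY40 contig (1734 bp) had 18.7 TPM in LP roots and 72.6 TPM in CK roots, with 63.8 TPM in LP shoots and 48.03 TPM in CK shoots. The 1347 bp WRKY40 contig had 0.93 TPM in LP roots and 7.65 TPM in CK roots, with 42.6 TPM in LP shoots and 26.4 TPM in CK shoots. Both WRKY40 contigs were lower in LP roots, by log2 ratios of -1.90 and -2.16 (scaled, -1.30 and -1.80), and neither passed the size rule in shoots. The WRKY18 contig (491 bp) had 0 TPM in both root libraries, 3.94 TPM in LP shoots and 4.36 TPM in CK shoots. A further contig took the name WRKY18 from cassava and shares its orthologous group with the WRKY70 contigs of 572 and 636 bp, so it was left out of group IIa; it is 311 bp long and had 0.32 TPM in LP roots, 66.4 TPM in CK roots, 17.9 TPM in LP shoots and 10.4 TPM in CK shoots. WRKY33, the group I regulator of camalexin synthesis and fungal defence in Arabidopsis, was represented by a 904 bp contig with 0.56 TPM in LP roots, 4.52 TPM in CK roots, 8.88 TPM in LP shoots and 6.47 TPM in CK shoots, a root log2 ratio of -1.82 (scaled, -1.54).

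Of the 5 group III contigs compared in roots, WRKY41 included, 4 were lower in LP roots (scaled, 3). WRKY70, which balances salicylate against jasmonate responses in Arabidopsis, had 10.1 TPM in LP roots and 22.5 TPM in CK roots on its 2042 bp contig, and 28.5 TPM in LP shoots and 30.2 TPM in CK shoots; its root log2 ratio of -1.08 was -0.50 after scaling and then missed the rule. The 658 bp contig of WRKY53, a regulator of leaf senescence in Arabidopsis, had 1.67 TPM in LP roots, 17.5 TPM in CK roots, 24.7 TPM in LP shoots and 37.0 TPM in CK shoots. Summed over its 8 contigs, group III had 16.6 TPM in LP roots, 193 TPM in CK roots, 139 TPM in LP shoots and 125 TPM in CK shoots. Without the 1661 bp WRKY41 contig the sum was 15.8 TPM in LP roots, 50.6 TPM in CK roots, 103 TPM in LP shoots and 96.7 TPM in CK shoots. In shoots 2 group III contigs were higher and 1 lower of 8.

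**Figure D2:**
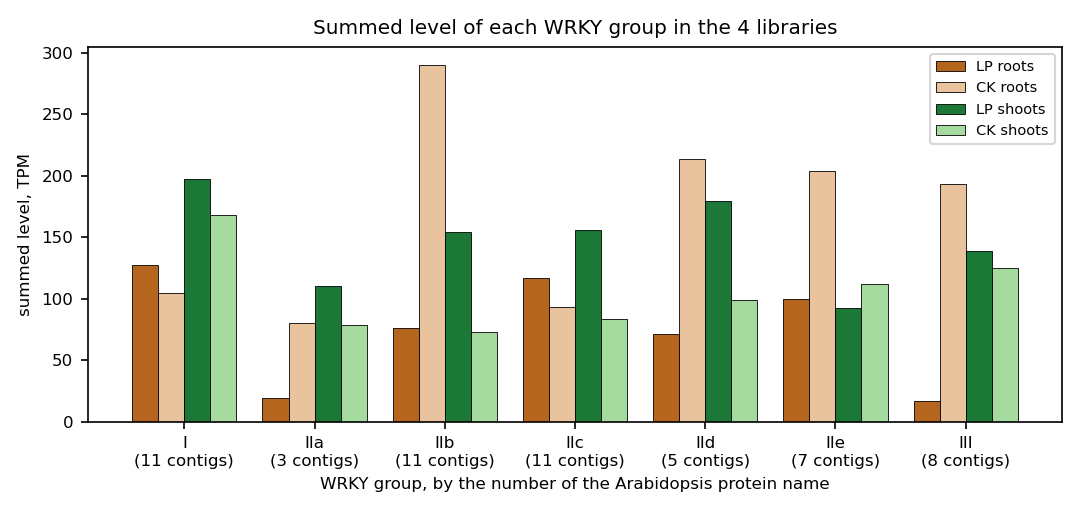
Summed TPM of the contigs in each WRKY group, by the number in an Arabidopsis Swiss-Prot name, in LP roots, CK roots, LP shoots and CK shoots; each bar is 1 library. Groups IIa, IIb, IId, IIe and III sum lower in LP roots than in CK roots, groups I and IIc higher, and group III has 16.6 TPM in LP roots against 193 TPM in CK roots.

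The remaining groups were counted the same way over the 56 contigs that an Arabidopsis Swiss-Prot name placed in a group, none of which is a replicate of another. These groups are small, and their counts stand beside a eudicot background of 40% higher and 33.7% lower in roots and 26.4% and 21.1% in shoots. In roots, group IIb had 3 contigs higher and 6 lower of 10, group IId none higher and 3 lower of 4, and group IIe 3 higher and 3 lower of 6. Scaling left 5 of the IIb, 2 of the IId and 2 of the IIe contigs lower. Group IId held WRKY15, which acts in growth and stress responses in Arabidopsis; its 612 bp contig had 11.6 TPM in LP roots, 72.5 TPM in CK roots, 94.0 TPM in LP shoots and 48.5 TPM in CK shoots. LP shoots were the highest and LP roots the lowest of the 4 libraries for this contig. Group IId also held 2 contigs of WRKY11, a negative regulator of basal resistance in Arabidopsis: the 1658 bp contig had 8.01 TPM in LP roots and 50.8 TPM in CK roots, while the 1155 bp contig had 46.6 TPM in LP roots and 77.9 TPM in CK roots and did not pass the rule there.

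Group I differed in direction with the scaling. Without scaling none of its 10 compared contigs was higher in LP roots and 4 were lower; scaled, 5 were higher and 3 lower. The long group I contigs named WRKY2, WRKY3, WRKY4, WRKY20, WRKY32 and WRKY44 all had positive root log2 ratios, from 0.24 for WRKY20 to 0.98 for WRKY44 (scaled, 0.84 to 1.59). WRKY44, known in Arabidopsis for trichome and seed coat development, had 33.7 TPM in LP roots, 16.6 TPM in CK roots, 28.9 TPM in LP shoots and 34.4 TPM in CK shoots. WRKY32, the most abundant group I contig at 1902 bp, had 27.1 TPM in LP roots, 19.1 TPM in CK roots, 56.1 TPM in LP shoots and 46.8 TPM in CK shoots, so both shoot libraries were above both root libraries. WRKY1, at 1580 bp, was the long group I contig that went the other way, with 2.18 TPM in LP roots and 13.1 TPM in CK roots.

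In group IIc the WRKY71 contig without WRKY evidence is counted, whose orthologous group is described as a TIGR01615 family and not as WRKY. It was lower in LP roots without scaling, with 10.7 TPM in LP roots and 25.7 TPM in CK roots. Group IIc had more contigs higher than lower in roots, 5 and 2 of 8 compared (scaled, 5 and 1). The group summed to 117 TPM in LP roots and 93.0 TPM in CK roots. Its long member on the higher side was WRKY13, which acts in stem wall development and flowering time in Arabidopsis. The 2577 bp WRKY13 contig had 47.4 TPM in LP roots and 14.7 TPM in CK roots, with 34.4 TPM in LP shoots and 11.5 TPM in CK shoots. Both LP libraries were above both CK libraries, with log2 ratios of 1.62 in roots and 1.50 in shoots (scaled, 2.23 and 1.38). It was the single contig of at least 1000 bp that was higher in both tissues.

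WRKY75, also of group IIc, is the member with the best-known link to phosphate starvation. It was represented by 4 contigs, and all 4 were higher in LP roots and 3 of them in LP shoots. The main contig (682 bp) had 20.0 TPM in LP roots, 9.16 TPM in CK roots, 26.6 TPM in LP shoots and 0.45 TPM in CK shoots. Its log2 ratio was 1.05 in roots (scaled, 1.64) and 4.25 in shoots (scaled, 4.01). The 494 bp contig had 5.85 TPM in LP roots, was listed at 0 in CK roots, and had 2.00 TPM in LP shoots and 0.13 TPM in CK shoots. The 615 bp contig had 1.64 TPM in LP roots and 6.96 TPM in LP shoots and was listed at 0 in both CK libraries. These 3 contigs were each lower in the CK library of their tissue. For the 494 bp contig, 3 fragments would have been 0.316 TPM in CK roots, and for the 615 bp contig 0.210 TPM in CK roots and 0.261 TPM in CK shoots.

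The fourth WRKY75 contig, 263 bp long, had 34.6 TPM in LP roots and was listed at 0 in CK roots and in LP shoots, with 0.63 TPM in CK shoots, which is 1 fragment. Summed over the 4 contigs, WRKY75 reached 62.02 TPM in LP roots, 9.16 TPM in CK roots, 35.5 TPM in LP shoots and 1.21 TPM in CK shoots. Log2 ratios of the sums were 2.63 in roots and 4.05 in shoots.

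WRKY42 and WRKY6 are both of group IIb and, in Arabidopsis, both repress PHO1; here their contigs differed. The 2 WRKY42 contigs were short and were listed at 0 in both CK libraries. Of eudicot-matched contigs under 400 bp, 67.1% were higher in LP roots, and 3816 of those 4202 were listed at 0 in CK roots. The 297 bp contig had 7.46 TPM in LP roots and 5.07 TPM in LP shoots, and the 326 bp contig had 5.39 TPM in LP roots and 11.95 TPM in LP shoots. For the 297 bp contig 3 fragments would have been 1.09 TPM in CK roots and 1.36 TPM in CK shoots. That contig shares its assembly component, a set of contigs that overlap in the assembly graph, with a WRKY47 contig of 751 bp with 0 TPM in both root libraries, 11.8 TPM in LP shoots and 14.4 TPM in CK shoots. Whether the 297 bp WRKY42 contig and this WRKY47 contig are pieces of 1 gene was not tested. Both share their orthologous group with the WRKY6 contigs, and the 326 bp contig has no group listed. The annotation thus does not set WRKY42 apart from WRKY6.

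WRKY6 was lower in LP roots on all 3 of its contigs. The 2096 bp contig had 11.2 TPM in LP roots, 39.7 TPM in CK roots, 43.5 TPM in LP shoots and 26.4 TPM in CK shoots. The 1218 bp contig had 1.92 TPM in LP roots, 9.56 TPM in CK roots, 16.1 TPM in LP shoots and 6.83 TPM in CK shoots, and the 864 bp contig of the same component had 2.42, 13.2, 21.2 and 10.6 TPM in the same order. On each, LP roots were the lowest and LP shoots the highest of the 4 libraries. Root log2 ratios were -1.74, -1.86 and -2.05 (scaled, -1.16, -1.40 and -1.57), and shoot log2 ratios were 0.70, 1.13 and 0.94, of which only that of the 1218 bp contig passed the rule. No contig was named WRKY45.

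**Figure D3:**
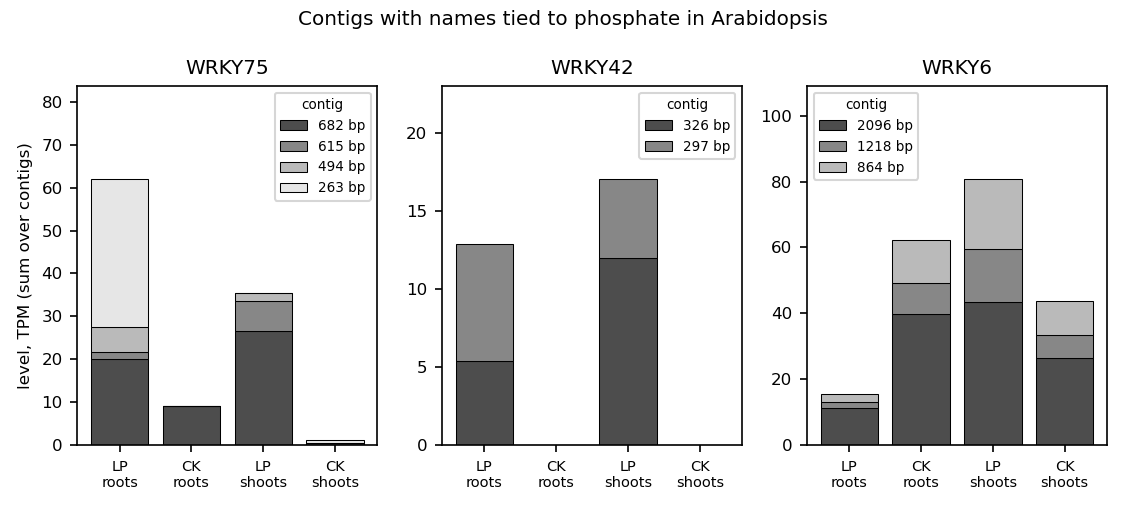
Level in TPM, stacked over contigs, of WRKY75, WRKY42 and WRKY6 in LP roots, CK roots, LP shoots and CK shoots; each bar is 1 library and each shade 1 contig. WRKY75 sums to 62.02 TPM in LP roots against 9.16 TPM in CK roots, WRKY42 has no bar in either CK library, and WRKY6 sums to 15.5 TPM in LP roots against 62.4 TPM in CK roots and to 80.8 TPM in LP shoots against 43.9 TPM in CK shoots.

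The second comparison asks the same of shoots. There 30 members were higher and 14 lower of 90 compared, 33.3% and 15.6%, against 40.1% and 23% of all contigs and 26.4% and 21.1% of eudicot-matched contigs. Scaled, 30 were higher and 15 lower, against 38.4% and 23.8% of all contigs and 24.4% and 22.3% of eudicot-matched contigs. Of the 30 that were higher, 15 were listed at 0 in CK shoots, as were 3981 of the 8116 eudicot-matched contigs that were higher. Few long contigs differed: 4 of 26 were higher and 2 lower, against 11.4% and 10.6% of eudicot-matched contigs of that length. The 4 were WRKY13, the 1218 bp contig of WRKY6, the 1155 bp contig of WRKY11 and the 1337 bp contig with the rice name WRKY24. WRKY11 had 40.1 TPM in LP shoots and 9.23 TPM in CK shoots on that contig, and the rice-named contig had 29.7 TPM in LP shoots and 7.62 TPM in CK shoots, with 39.4 TPM in LP roots and 45.7 TPM in CK roots. Their shoot log2 ratios were 2.01 and 1.83 (scaled, 1.88 and 1.71), and neither passed the rule in roots. The 2 long contigs on the lower side were WRKY27, at 2.14 TPM in LP shoots and 19.4 TPM in CK shoots, and WRKY7, at 6.25 TPM in LP shoots and 13.8 TPM in CK shoots; WRKY27 affects wilt symptoms and WRKY7 binds calmodulin in Arabidopsis.

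Group IIb contigs in shoots were 4 higher and none lower of 9, with sums of 155 TPM in LP shoots and 72.8 TPM in CK shoots. Group IIc contigs were 5 higher and 1 lower of 10, with sums of 156 TPM in LP shoots and 83.2 TPM in CK shoots. In group I, 1 was higher and 1 lower of 10, and in group IIe none was higher and 2 were lower of 6. The counts of groups I, IIa, IIb, IIc, IId, IIe and III in shoots were the same with scaling. The widest gap on the lower side was on a WRKY55 contig of 263 bp. It was listed at 0 in LP shoots, against 76.9 TPM in CK shoots, and at 0 in both root libraries. For this contig 3 fragments would have been 1.41 TPM in LP shoots. The 296 bp WRKY55 contig was lower too, at 0 TPM in LP shoots and 10.07 TPM in CK shoots. The 451 bp WRKY55 contig was higher, at 19.2 TPM in LP shoots and 2.53 TPM in CK shoots, a log2 ratio of 2.52.

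Root and shoot responses were then set side by side for each contig. Higher in both tissues were 18 of 103 members, 17.5%, against 7.90% of eudicot-matched contigs and 12.6% of all contigs. Most of the 18 were listed at 0 in CK roots, and these backgrounds were not matched for length or for such zeros. Among the 24 contigs of at least 1000 bp with WRKY evidence, 1 was higher in both, 4.17%. Lower in both were 3 members, 2.91%, against 4.20% of eudicot-matched contigs and 2.96% of all contigs: WRKY7, the 1138 bp contig of WRKY27 and the 778 bp contig of WRKY26. With scaling 1 of them, WRKY26, was lower in both. The largest class by direction was lower in roots with no call in shoots, with 30 members, 29.1%, against 16.6% of eudicot-matched contigs and 11.3% of all contigs. A further 20 members passed the rule in neither tissue. Of the 18 higher in both, 13 were among the 77 with WRKY evidence, and 5 carried the names WRKY16 or WRKY19. Beside WRKY13, 3 WRKY75 and both WRKY42 contigs, they included 2 contigs of WRKY72, which acts in basal defence in Arabidopsis. The 550 bp WRKY72 contig had 18.4 TPM in LP roots and 4.33 TPM in LP shoots and was listed at 0 in both CK libraries. The 379 bp contig had 2.39 TPM in LP roots, was listed at 0 in CK roots, and had 33.1 TPM in LP shoots and 3.82 TPM in CK shoots.

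**Figure D4:**
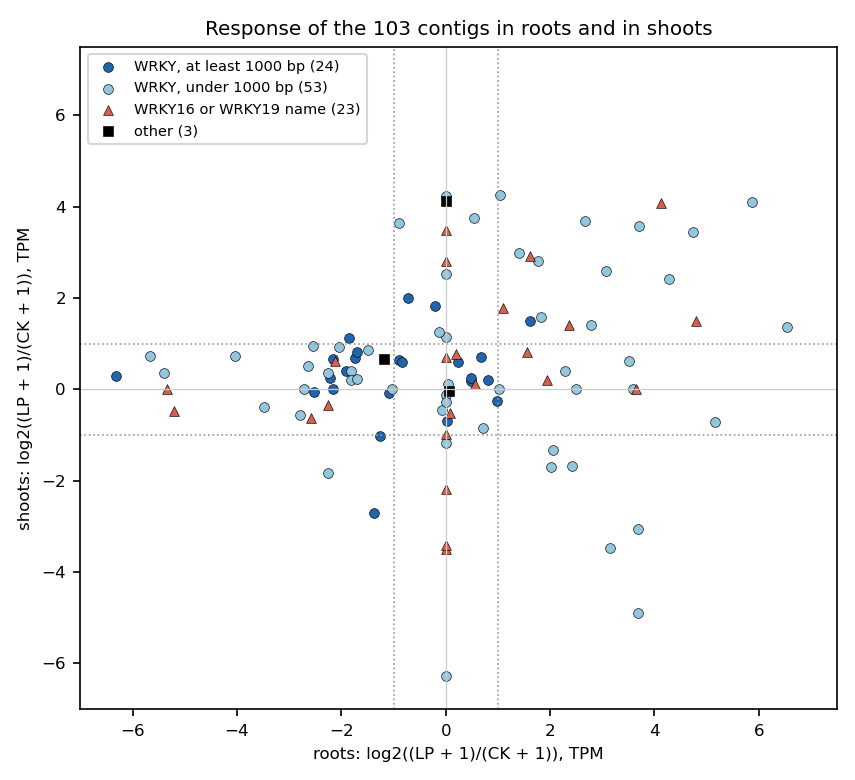
Log2((LP + 1)/(CK + 1)) of TPM in roots (horizontal) and shoots (vertical) for the 103 contigs, 1 point each, by length and annotation; dotted lines mark the size rule. The 24 long WRKY contigs lie mostly left of 0 and close to the horizontal zero line, and the 18 contigs of the upper right field are under 1000 bp except WRKY13.

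Contigs listed at 0 in one library of a pair weigh on all of these counts, and they are common outside this family too. By the size rule, 27 of the 33 members higher in LP roots were listed at 0 in CK roots. So were 6784 of 10105 eudicot-matched contigs. Of the 34 members lower in LP roots, 4 were listed at 0 there, as were 1800 of 8510 eudicot-matched contigs. The counts at 5 TPM below have no such share beside them. In roots 16 members had at least 5 TPM in LP and were listed at 0 in CK, 12 of them under 400 bp, and 2 were the reverse. The 3 most abundant of the 16 were a WRKY28 contig of 225 bp with 92.5 TPM in LP roots, a contig of 210 bp named WRKY1 in mulberry with 57.6 TPM and the 263 bp WRKY75 contig. WRKY28, which activates a salicylate synthesis gene in Arabidopsis, had 11.2 TPM in LP shoots and 3.69 TPM in CK shoots on the same contig. The reverse pair was WRKY9 (333 bp) and WRKY16 (341 bp), both listed at 0 in LP roots, against 41.3 and 39.3 TPM in CK roots. In shoots 12 members had at least 5 TPM in LP and were listed at 0 in CK, led by WRKY43 (242 bp, 17.99 TPM in LP shoots), and 4 were the reverse. The fragments behind such values could be estimated for 9 of the 16 in LP roots, with a lowest of 32, a median of 41 and a highest of 239, and for 7 of the 12 in LP shoots, with 14, 41 and 104; the others were too short or had more than 1 transcript.

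The authors' counting could divide reads between contigs of 1 assembly component. The assembly placed 26 members in 13 components that held 2 members each. In 3 of the 13 the 2 members went opposite ways by the rule in roots, and in 1 they did so in shoots. In the component with 2 WRKY70 contigs, the 572 bp one had 3.14 TPM in LP roots and was listed at 0 in CK roots, whereas the 636 bp one had 0.04 TPM in LP roots and 10.6 TPM in CK roots. Their sum was 3.18 TPM in LP roots and 10.6 TPM in CK roots, a log2 ratio of -1.47. The 550 bp WRKY72 contig likewise shared its component with a 470 bp WRKY61 contig that was lower in LP roots, at 15.4 TPM against 44.98 TPM in CK roots, by a log2 ratio of -1.49 (scaled, -0.89, short of the rule). The pair summed to 33.8 TPM in LP roots and 44.98 TPM in CK roots, a log2 ratio of -0.40 that missed the rule.

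The last comparisons set roots against shoots in each medium. Under CK, 20 members were higher and 34 lower in roots of 79 compared, against 26.5% higher and 54.2% lower over all contigs and 20.7% and 53.1% over eudicot-matched contigs. Under LP, 25 were higher and 47 lower of 95, against 41.7% and 37.5% over all contigs and 20.3% and 53.5% over eudicot-matched contigs. Scaled, 34 were higher and 36 lower, against 47.5% and 30.5% of all contigs and 28.2% and 42.3% of eudicot-matched contigs. Under CK the shares of members, 25.3% higher and 43% lower, put fewer on the lower side than the eudicot background. WRKY22 and the 1661 bp WRKY41 contig were root-high under CK, with log2 ratios of 4.39 and 2.29 for roots over shoots. Under LP the ratio was 1.93 for WRKY22 (scaled, 2.72) and -4.33 for that WRKY41 contig (scaled, -3.76), which thus changed sides between the media. The 929 bp WRKY41 contig was lower in roots in both media, with log2 ratios of -3.82 under CK and -2.27 under LP. WRKY12, which acts in pith wall formation in Arabidopsis stems, was the long contig nearest to shoot only, with 0.02 TPM in LP roots and 0 in CK roots, and 5.60 TPM in LP shoots and 9.67 TPM in CK shoots. The contig of SUSIBA2, a sugar-response WRKY of barley, varied least among the most abundant members, with 35.02 TPM in LP roots, 36.6 TPM in CK roots, 30.7 TPM in LP shoots and 42.4 TPM in CK shoots.

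The WRKY16 and WRKY19 contigs, which had no WRKY evidence, are set apart here. Of 14 compared in roots, 8 were higher and 5 lower, 57.1% and 35.7%, against 40% and 33.7% of eudicot-matched contigs. Of 19 compared in shoots, 7 were higher and 3 lower, 36.8% and 15.8%, against 26.4% and 21.1%. The most abundant were 2 WRKY19 contigs. One of 783 bp had 72.4 TPM in LP roots, 63.3 TPM in CK roots, 11.02 TPM in LP shoots and 5.98 TPM in CK shoots, and one of 530 bp had 18.1 TPM in LP roots, 113 TPM in CK roots, 36.03 TPM in LP shoots and 56.3 TPM in CK shoots. The first was high in both root libraries and the second was highest in CK roots alone. Without these 23 and the other 3, the 77 gave 25 higher and 28 lower of 65 in roots, 38.5% and 43.1%, and 22 higher and 11 lower of 68 in shoots, 32.4% and 16.2%.

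Other families of transcription factors found by name were counted with the same rule. In roots 25 of 86 MYB contigs were higher and 40 lower, 26 of 55 NAC contigs higher and 13 lower, and 25 of 69 ethylene-responsive factor contigs higher and 22 lower. In shoots the counts were 37 higher and 37 lower of 140 for MYB, 20 and 16 of 74 for NAC, and 18 and 27 of 85 for ethylene-responsive factors. WRKY members in shoots had the highest share on the higher side (33.3%) and the lowest on the lower side (15.6%) of the 4 families, whereas in roots their shares lay between those of MYB and NAC on both sides. Among contigs above 0 in both shoot libraries the lead was small, with 21.4% of WRKY members higher and 12.9% lower. There MYB had 21.1% and 21.1%, NAC 19.3% and 14%, and ethylene-responsive factors 10.8% and 27.7%. No test of these differences was made, since contigs are not replicates.

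**Figure D5:**
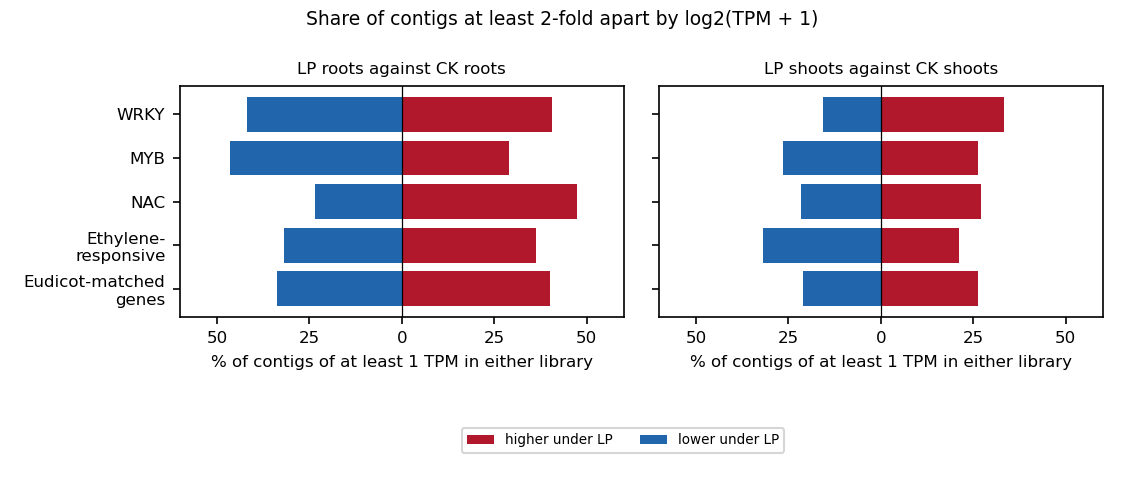
Share of compared contigs that were higher (red, right) or lower (blue, left) under LP in roots and in shoots, for the WRKY members, MYB, NAC and ethylene-responsive contigs and all eudicot-matched contigs; each comparison is of 1 LP and 1 CK library. WRKY shows 40.7% higher and 42% lower in roots, and 33.3% higher and 15.6% lower in shoots.

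Partners and pathways of WRKY factors were counted from lists of protein names and are set beside the same eudicot background, 40% higher and 33.7% lower in roots and 26.4% and 21.1% in shoots. Among 16 VQ proteins, which bind WRKY domains, 4 were higher and 5 lower of 15 in roots, 26.7% and 33.3%, and 3 higher and 2 lower of 14 in shoots, 21.4% and 14.3%. Of the VQ contigs lower in LP roots, VQ17 (332 bp) had the highest level, with 2.3 TPM in LP roots and 88.9 TPM in CK roots. It was listed at 0 in both shoot libraries. MKS1 links MAP kinase 4 to WRKY33 in Arabidopsis. MKS1 had 10.1 TPM in LP roots and 33.2 TPM in CK roots, with 34.8 TPM in LP shoots and 10.8 TPM in CK shoots. It was thus lower in LP roots and higher in LP shoots. A 631 bp contig described as MKS1-like went the other way in roots, with 15.4 TPM in LP roots, 0.21 TPM in CK roots, 3.51 TPM in LP shoots and 3.33 TPM in CK shoots. SIB1, a VQ protein that activates WRKY33 in Arabidopsis, had 18.3 TPM in LP roots, 1.05 TPM in CK roots, 14.2 TPM in LP shoots and 16.3 TPM in CK shoots. Of 70 contigs of the MAP kinase cascade, 22 were higher and 18 lower of 57 in roots (scaled, 26 and 15), and 10 higher and 18 lower of 63 in shoots. The 61 of them with a eudicot match gave the opposite balance in roots, 14 higher and 17 lower of 48, 29.2% and 35.4% (scaled, 18 and 14), and in shoots 6 higher and 18 lower of 58, 10.3% and 31%. MPK3, the immune MAP kinase, had 28.2 TPM in LP roots, 160 TPM in CK roots, 180 TPM in LP shoots and 138 TPM in CK shoots. Its root libraries had the same order as for WRKY22, WRKY40 and the 1661 bp WRKY41 contig. MPK20 (1564 bp) and MKK6 (456 bp) went the other way, at 80.1 and 36.5 TPM in LP roots against 21.3 and 0 TPM in CK roots.

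Of 54 salicylate and defence regulators, 17 were higher and 17 lower of 41 in roots, 41.5% each, and 17 higher and 8 lower of 48 in shoots, 35.4% and 16.7%. Among those lower in LP roots, a TGA2 contig of 844 bp had the highest level. It had 40.8 TPM in LP roots and 156 TPM in CK roots, with 3.21 TPM in LP shoots and 0.19 TPM in CK shoots. NDR1 is a membrane protein needed for resistance signalling in Arabidopsis. Its contig had 1.91 TPM in LP roots, 121 TPM in CK roots, 17.7 TPM in LP shoots and 33.4 TPM in CK shoots. TGAL1 is a bZIP factor of the TGA type. It had 60.2 TPM in LP roots, 16.7 TPM in CK roots, 26.9 TPM in LP shoots and 27.1 TPM in CK shoots. Of 30 jasmonate contigs, 5 were higher and 11 lower of 25 in roots, 20% and 44%, and 9 higher and 6 lower of 29 in shoots, 31% and 20.7%. TIFY10A, a jasmonate repressor, had 30.9 TPM in LP roots, 144 TPM in CK roots, 326 TPM in LP shoots and 355 TPM in CK shoots on its 1976 bp contig. WRKY factors bind near some PHO1 and PHT1 genes in Arabidopsis, and contigs of both families were counted. Of these, 6 were higher and 14 lower of 23 in roots, 26.1% and 60.9% (scaled, 6 and 9 contigs), and 13 higher and 4 lower of 21 in shoots, 61.9% and 19%. Their summed level was 345 TPM in LP roots, 942 TPM in CK roots, 411 TPM in LP shoots and 159 TPM in CK shoots.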

How the data were processed

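Root RNA, and a mix of stem and leaf RNA, gave 4 paired-end poly(A) libraries, per the labels' protocols. The submitters' processing notes name cutadapt 1.9 and FastQC. The contig identifiers carry the name of the assembler Trinity, without a version. Which programs aligned and quantified the reads is not given in the sources used here. The authors deposited TPM per assembled contig with length and annotation, per the file headers. Members and lists were chosen with earlier results of these data known. With Python 3.11.15, pandas 2.3.3, numpy 2.4.6 and matplotlib 3.10.9, contigs were counted by log2((a + 1)/(b + 1)) of at least 1 in size with a larger value of at least 1 TPM. TPM of low single-transcript contigs lay within 0.0065 TPM of whole multiples of 1 fragment for 93.6% of LP root values, 95.6% of CK root values, 86.7% of LP shoot values and 95.2% of CK shoot values (chance, 10.2%, 6.61%, 4.84% and 4.61%). The step was fitted to these same contigs, so these shares are no independent check. On longer contigs, outside the fitted lengths, the shares were 93.1%, 88.9%, 97.9% and 100% in the same order (chance, 55.6%, 36.1%, 37.2% and 28.6%). The steps cover counting error only. The steps were tested on simulated data. The contigs named were drawn from the 12 most abundant, the 5 highest and lowest ratios per comparison among those with at least 5 TPM, all named WRKY6, WRKY42 or WRKY75, group IIa and WRKY33, the most abundant per group, and some leading members of the pathway lists. The planned choice from each list, the most abundant member called higher and lower in each tissue, was not followed throughout. Other contigs were named after their values were seen. Sequences and genome positions were not used here.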

Additional observations from a re-analysis of the deposited data

Results flagged for a closer look

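For 7 contigs the log2 ratio of LP over CK passed the size rule in opposite directions in roots and shoots; with 1 library per group the difference was not tested. Given as the shoot ratio minus the root ratio, it was 2.98 for the WRKY6 contig of 1218 bp, which was lower in LP roots and higher in LP shoots. The other 6 were higher in LP roots and lower in LP shoots, and all 6 were listed at 0 in CK roots. WRKY48, a negative regulator of basal resistance in Arabidopsis, supplied a contig of 239 bp at -8.57 and one of 444 bp at -6.75. WRKY48 at 444 bp had 11.9 TPM in LP roots, was listed at 0 in CK roots, and had 1.62 TPM in LP shoots and 20.96 TPM in CK shoots. The value was -6.62 for WRKY55 at 296 bp, -4.09 for WRKY58 at 526 bp, -3.72 for WRKY27 at 654 bp and -3.36 for WRKY70 at 572 bp. Higher in LP roots and lower in LP shoots were 5.83% of the members, against 3.76% of eudicot-matched contigs, and the reverse were 0.971%, against 4.02%. With median scaling the same number of contigs, 6, was higher in LP roots and lower in LP shoots, and 1 was the reverse.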

How the results depend on the processing

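No paired analysis was possible because each group is 1 library. A pseudocount of 0.1 TPM, no minimum, scaling, a eudicot match or WRKY evidence kept each count within 1.5 times. In roots, members higher were 21 at a minimum of 5 TPM, 14 for sums over shared names, 17 over contigs of at least 400 bp, 6 over contigs above 0 in both libraries and 1 over contigs of at least 1000 bp, against 33; members lower were 21 at a log2 threshold of 2, 18 for name sums and 13 at 1000 bp, against 34. In shoots, members higher were 19 at a threshold of 2, 11 for name sums, 15 at 400 bp, 15 above 0 in both and 4 at 1000 bp, against 30; members lower were 8, 6, 8, 9 and 2, against 14. For CK roots against CK shoots, members higher were 13 above 0 in both and 7 at 1000 bp, against 20; members lower were 22 at 5 TPM, 14 for name sums, 22 at 400 bp, 9 above 0 in both and 5 at 1000 bp, against 34. For LP roots against LP shoots, members higher were 14 at a threshold of 2, 8 for name sums, 13 at 400 bp and 3 at 1000 bp, against 25; members lower were 30, 19 for name sums and 12 at 1000 bp, against 47. Among single contigs past the size rule, the direction turned where contigs of one name were summed. In roots the log2 ratio became -0.06 for WRKY16 (contigs of 252 and 410 bp) and -0.78 for WRKY19 (462 bp). In shoots it became -0.03 for WRKY16 (410 bp), -0.05 for WRKY19 (462 bp) and -2.16 for WRKY55 (451 bp). For CK roots over CK shoots it became -0.83 for WRKY16 (341 bp), 0.61 for WRKY19 (307 bp) and 0.11 for WRKY40 (1347 bp). For LP roots over LP shoots it became -0.86 for WRKY16 (252 and 410 bp), -0.12 for WRKY19 (783 bp), -1.51 for WRKY21 (384 bp), -1.18 for WRKY55 (296 bp) and 0.79 for WRKY75 (615 bp). Over all settings, single contigs fell short of the size rule in 63 cases and newly passed it in 24. The 400 bp, 1000 bp and both-above-0 settings test fewer contigs. The 1000 bp and WRKY evidence settings were chosen after seeing the data. Depth limits contigs under 400 bp most, where 3 fragments exceed 0.266 TPM in LP roots and 0.507 TPM in CK roots.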
